A study of Homo sapiens with 6 samples.

Results

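The genes described here are 10 plasma cell surface proteins that serve as targets of myeloma therapy or as markers of the myeloma phenotype: TNFRSF17, TNFRSF13B, SDC1, CD38, SLAMF7, FCRL5, GPRC5D, CD28, NCAM1 and CD47. They were chosen by name from the clinical use of their products, and every probe set annotated to one of them and to no other gene was taken, which gave 31 probe sets among the 41091 that carried a single gene name and 10 genes among 19775. RNA came from 3 established human myeloma lines, ARP1, OCI-MY5 and OPM2, each sorted by flow cytometry with an antibody into a CD24+ and a CD24- fraction, and each of the 6 RNA samples was read on 1 Affymetrix Human Genome U133 Plus 2.0 array. All groups shared the same culture in RPMI-1640 with 10% serum and antibiotics, and no drug or genetic change was named in the labels. The study compared CD24+ with CD24- cells, since the CD24+ fraction was taken as a stem-like compartment. The same arrays also compare the lines, with the CD24+ and CD24- samples of a line as its 2 arrays. Nothing in the labels says that a line was grown and sorted more than once, so p-values between lines measure only the spread between the 2 fractions of a line.

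These proteins belong to the equipment of the antibody-secreting plasma cell. The BCMA receptor (TNFRSF17) and the related TACI receptor (TNFRSF13B) bind the cytokines BAFF and APRIL and sustain plasma cell survival, whereas syndecan-1 (SDC1, CD138) and CD38 are the standard surface markers by which plasma cells are recognised. BCMA, GPRC5D, FCRL5, CD38 and SLAMF7 are bound by antibodies, bispecific antibodies or engineered T cells in use or in trial against myeloma, while CD28 and CD56 (NCAM1) are molecules of other cells that myeloma cells can display, and CD47 is the signal that restrains phagocytes.

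To show the DNA next to the genes' start sites, the 250 bases upstream are given for 4 of the genes: SDC1, CD38 and GPRC5D, whose signals were lowest in OCI-MY5, and CD47, whose leading probe set gave the flattest signal of the 10. The sequences are RefSeq's for the build GRCh38.p14, written 5′ to 3′ on the strand of the gene. Capitals mark every match, on either strand, to TATAAA (the box named for its first letters), GGGCGG (GC box), CCAAT (the box of that name), GAAANNGAA (interferon response element), ATGCAAAT (octamer) or TGANTCA (AP-1 site), and a match is a run of letters rather than a site in use. In all, 7 of the 10 genes had such a window, and TNFRSF17, SLAMF7 and NCAM1 had no entry. The windows lie at chr2:20225476-20225725 on the minus strand for SDC1, at chr4:15778078-15778327 on the plus strand for CD38, at chr12:12952171-12952420 on the minus strand for GPRC5D and at chr3:108091032-108091281 on the minus strand for CD47.
SDC1: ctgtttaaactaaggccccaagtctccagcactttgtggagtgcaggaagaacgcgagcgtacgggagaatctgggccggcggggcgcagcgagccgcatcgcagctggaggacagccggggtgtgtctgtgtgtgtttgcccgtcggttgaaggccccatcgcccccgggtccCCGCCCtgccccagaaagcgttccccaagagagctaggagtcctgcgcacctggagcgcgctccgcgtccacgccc
CD38: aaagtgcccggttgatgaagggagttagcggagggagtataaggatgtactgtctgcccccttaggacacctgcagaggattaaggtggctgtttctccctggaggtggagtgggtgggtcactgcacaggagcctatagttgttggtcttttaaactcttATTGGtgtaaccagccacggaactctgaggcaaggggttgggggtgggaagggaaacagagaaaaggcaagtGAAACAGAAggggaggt
GPRC5D: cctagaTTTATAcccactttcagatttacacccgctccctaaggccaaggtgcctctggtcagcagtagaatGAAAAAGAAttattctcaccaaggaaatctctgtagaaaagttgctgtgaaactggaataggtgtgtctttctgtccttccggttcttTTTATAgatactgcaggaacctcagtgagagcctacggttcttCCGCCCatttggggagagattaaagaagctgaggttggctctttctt
CD47: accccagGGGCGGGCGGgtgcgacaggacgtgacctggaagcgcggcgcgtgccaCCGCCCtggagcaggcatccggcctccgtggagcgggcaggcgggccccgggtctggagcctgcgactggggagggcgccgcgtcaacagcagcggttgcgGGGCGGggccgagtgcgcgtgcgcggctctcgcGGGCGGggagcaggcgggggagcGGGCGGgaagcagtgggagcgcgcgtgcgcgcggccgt
The CD47 window was the richest in C and G, at 79.6%, with 39 CpG dinucleotides and 6 GC boxes, of which 2 overlap. The SDC1 window shown had 66.4%, 23 CpG dinucleotides and 1 GC box, and a second window of SDC1, at chr2:20225131-20225380 and not printed, had 75.2%, 21 CpG dinucleotides and 1 GC box. The CD38 window, at 52.4%, held 1 CCAAT box and 1 interferon response element, and the GPRC5D window, at 44.4%, held 2 TATA boxes, 1 GC box and 1 interferon response element. Among the 27305 upstream windows of the reference table, the median was 58.0% C and G with 11 CpG dinucleotides. A GC box occurred in 42.3% of those windows, a CCAAT box in 33.0%, a TATA box in 11.1%, an interferon response element in 7.06%, an AP-1 site in 6.60% and an octamer in 1.66%. Neither an octamer nor an AP-1 site was found in the 4 windows shown.

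The values are MAS5 intensities, a linear measure of brightness per probe set that is not compared between probe sets here. Only the sums over marker lists add probe sets together. Differences were computed on log2(intensity + 16), which understates the change of dim probe sets, and tested with limma, with p-values adjusted by Benjamini-Hochberg over the 27307 probe sets whose mean was at or above the median of all 54613. Of the 31 probe sets of the 10 genes, 22 passed that limit, and each gene is led below by the brightest of its probe sets on average, so that each of the 10 had a tested probe set. The 9 that did not pass were 4 of FCRL5, 4 of NCAM1 and 1 of CD47 (213856_at), whose intensities lay between 1.37 and 189.

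The arrays were not alike in technical measures. The OPM2 CD24+ array had a spike-in control signal of 30657 (geometric mean of 9 probe sets) against 5155 to 6102 on the other 5, and a median intensity of 135 against 69.0 to 84.2. The ratio of the 3' to the 5' probe set of ACTB, which rises when RNA is degraded or labelled short, was 2.63 and 2.47 in ARP1, 9.36 and 23.2 in OCI-MY5, and 27.1 and 7.54 in OPM2 (CD24+ and CD24- in that order). The first 2 measures thus set a single array apart, whereas the ACTB ratio was lower in ARP1 than on the other 4 arrays and overlapped between OCI-MY5 and OPM2. Its part in the differences between lines was not tested. The TrpnX control probe sets, which match no human transcript and serve here as a floor, reached 10.3 to 96.4 depending on the array. The 6 probe sets of CD24 itself lay between 1.69 and 140, none passed the limit on dim probe sets and none differed in the same direction in all 3 lines, so they give no check of the sort. All 9 plasma cell markers, 3 of which are members here, lay above the TrpnX controls on every array. Of these, 4 passed the F test over the lines, where 19.1% of leading probe sets did: TNFRSF17, SDC1, POU2AF1 and MZB1. POU2AF1, a B cell transcriptional coactivator, read 4702 and 4211 in ARP1, 1234 and 1308 in OCI-MY5, and 29408 and 25722 in OPM2 (limma adjusted p = 0.00182). MZB1, a chaperone of antibody-secreting cells, was lowest in OPM2, at 4194 and 3792 against 11893 and 9222 in ARP1 and 5963 and 5072 in OCI-MY5 (0.0384). The MZB1 call was lost under 7 of 16 alternatives, among them the line as a block (0.0573) and each fit without 1 array of ARP1 or OCI-MY5 (0.112 to 0.188).

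By the F test over the 3 lines, 5 of the 10 genes differed in the leading probe set: TNFRSF17, SLAMF7, SDC1, GPRC5D and NCAM1. Of all leading probe sets, 19.1% passed (2303 of 12078). By probe set, 9 of the 22 tested passed the F test, where 16% of all tested probe sets did (4365 of 27307, and 2417 with the line as a replicate block). The 9 belong to the same 5 genes. By the mean of the leading probe set, OPM2 stood highest of the 3 lines in TNFRSF17, TNFRSF13B, SDC1, CD38, SLAMF7, CD28 and NCAM1. In TNFRSF13B its lead over OCI-MY5 was 0.42 and not called (limma adjusted p = 0.344). By the same measure OCI-MY5 stood lowest in TNFRSF17, SDC1, CD38, SLAMF7, GPRC5D and CD28. In CD28 it lay 0.20 below ARP1 (limma adjusted p = 0.720), and the other tested probe sets of CD28 put ARP1 lowest. Against ARP1, 8 probe sets were higher in OPM2 and 1 was lower, where 6.17% and 9.35% of all tested probe sets were (15.5% together). Against OCI-MY5, 10 were called and each was higher in OPM2, where 6.77% of all tested probe sets were higher and 8.49% lower (15.3% together, 4167 of 27307). With arrays centred by median, the calls over all probe sets split into 699 higher and 2060 lower against ARP1, in place of 1685 and 2552, and into 749 higher and 2160 lower against OCI-MY5, in place of 1848 and 2319. For the 10 genes, the 9 probe sets called against ARP1 became 4 with centred arrays and 3 without the limit on dim probe sets. The 10 called against OCI-MY5 became 6 with centred arrays and 6 without that limit. Both counts also fell without any one array of ARP1 or OCI-MY5, which leaves a line with 1 array. The first fell furthest without an ARP1 array and the second without an OCI-MY5 array. The 9 called by the F test became 6 with centred arrays, 5 without that limit and 4 without either ARP1 array. In such bulk RNA, fewer cells that carry a transcript and less of it per cell cannot be told apart. Between ARP1 and OCI-MY5, limma called 0 of the 22 (12 at an unadjusted p below 0.05), where it called 0.348% of all tested probe sets (95 of 27307; 2 with the replicate block). Other settings did call probe sets of the 10 genes in that contrast: 7 of 22 with an intensity trend in the variance, 6 of 13 with the limit at the 75th percentile, 4 of 9 as gene means, 3 of 10 with 1 probe set per gene, 3 of 22 with a pseudocount of 64 and 3 of 21 without either OPM2 array. Those settings also called more of all tested features. The trend called 1584 of 27307, the limit at the 75th percentile 1555 of 13654 and the pseudocount of 64 559 of 27307. Gene means gave 137 of 10822, and 1 probe set per gene gave 316 of 12078. With the trend, the limma adjusted p was 0.00227 for GPRC5D and 0.00304 for TNFRSF17.

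**Figure D1:**
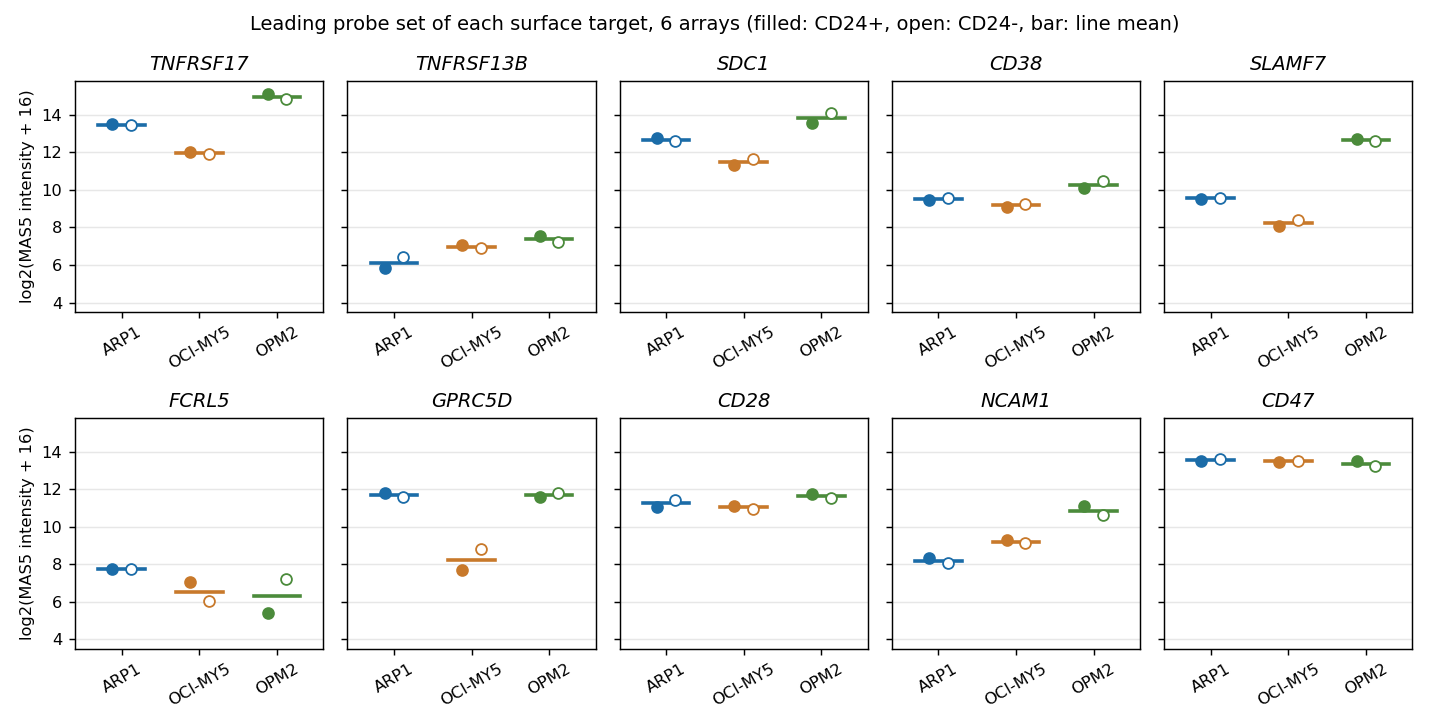
Level of the leading probe set of each gene on each of the 6 arrays, as log2(MAS5 intensity + 16), with the lines on the horizontal axis; filled points are CD24+ arrays, open points CD24- arrays and bars the mean of the 2. For TNFRSF17 the 2 points of OPM2 lie above those of ARP1 and the 2 of ARP1 above those of OCI-MY5, whereas for CD47 all 6 points lie close together, and heights in different panels are from different probe sets and have no order.

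TNFRSF17 encodes BCMA, the receptor through which APRIL supports long-lived plasma cells. Its single probe set (206641_at) read 11584 and 11033 in ARP1 CD24+ and CD24-, 4104 and 3885 in OCI-MY5, and 34757 and 29320 in OPM2. The 3 lines did not overlap, and the fractions of a line lay close together, so that 99.6% of its variance on the log2 scale lay between lines. OPM2 exceeded OCI-MY5 by 2.99 on the log2 scale (SE 0.21, 7.97-fold, limma adjusted p = 0.00232). OPM2 exceeded ARP1 by 1.50 (SE 0.21, 2.82-fold, adjusted p = 0.0138). The difference between ARP1 and OCI-MY5 was of the same size, 1.50 (SE 0.21), with an adjusted p of 0.0704 that fell to 0.0457 and 0.0458 without the CD24+ or the CD24- array of OPM2. The call of OPM2 over ARP1 did not hold without the CD24+ (adjusted p = 0.107) or CD24- (0.112) array of ARP1, without either array of OCI-MY5 (0.0515 and 0.0517), when arrays were centred by median (1.23, adjusted p = 0.0862) or without the limit on dim probe sets (0.0792). Without the OPM2 CD24+ array, OPM2 remained 2.87 above OCI-MY5 (adjusted p = 0.00511) and 1.37 above ARP1 (0.0219).

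TNFRSF13B encodes TACI, the second receptor of BAFF and APRIL, also found on activated and memory B cells. Its single probe set (207641_at) read 41.2 and 68.8 in ARP1, 116 and 103 in OCI-MY5, and 168 and 136 in OPM2. These are dim signals, and each lay above the TrpnX controls of its array. ARP1 was the lowest line, in contrast to TNFRSF17, and OPM2 exceeded it by 1.26 (SE 0.28, 2.40-fold, limma adjusted p = 0.0415). The call was lost under 10 of 15 alternatives, among them the line as a block (adjusted p = 0.0736), quantile normalization (0.98, adjusted p = 0.0924) and each fit without any single array other than OPM2 CD24- (adjusted p 0.0824 to 0.199). The F test over the lines gave an adjusted p of 0.0677.

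Of 8 other BAFF and APRIL genes measured (ligands, the BAFF receptor and adaptors), 6 were tested and 2 passed the F test over the lines, where 19.1% of leading probe sets did (2303 of 12078). CAMLG, the membrane protein that interacts with TACI, read 5086 and 5327 in ARP1, 6252 and 5743 in OCI-MY5, and 1120 and 1321 in OPM2, so that OPM2, the line highest in both receptors, was the lowest here (-2.08 against ARP1, SE 0.21, limma adjusted p of the F test 0.0068). TRAF5, a cytoplasmic adaptor of TNF receptors, read 1176 and 1159 in ARP1, 1163 and 895 in OCI-MY5, and 371 and 178 in OPM2 (adjusted p of the F test 0.0353). The ligand BAFF (TNFSF13B) read 38.9 to 181 and was not called, and APRIL (TNFSF13) did not pass the limit on dim probe sets.

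Of the gamma-secretase subunits, the membrane protease that cuts BCMA from the cell surface, 5 were tested and 2 passed the F test, which 19.1% of leading probe sets passed. PSEN2, a catalytic subunit, was highest in OPM2, at 1406 and 1132 against 866 and 896 in ARP1 and 511 and 428 in OCI-MY5 (adjusted p of the F test 0.0346). APH1B, a scaffold subunit, was lowest in OPM2, at 73.0 and 128 against 551 and 709 in ARP1 and 600 and 453 in OCI-MY5 (adjusted p 0.0172). The 2 subunits thus differed in opposite directions between OPM2 and OCI-MY5.

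SDC1 encodes syndecan-1, the heparan sulfate proteoglycan known as CD138. Its leading probe set (201287_s_at) read 6877 and 6122 in ARP1, 2595 and 3156 in OCI-MY5, and 12025 and 17529 in OPM2. Its other probe set (201286_at) read 4364 and 4165 in ARP1, 1409 and 1282 in OCI-MY5, and 3537 and 3661 in OPM2. Both put OCI-MY5 lowest with no overlap, but they disagreed on which line was highest.

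OPM2 exceeded OCI-MY5 by 2.34 on the leading probe set of SDC1 (SE 0.28, 5.05-fold, limma adjusted p = 0.00865) and by 1.41 on the other (SE 0.20, 2.66-fold, adjusted p = 0.0138). Against ARP1, OPM2 was higher by 1.16 on the leading probe set (SE 0.28, adjusted p = 0.0489) and lower by 0.24 on the other (95% interval of the difference -0.75 to 0.26, adjusted p = 0.438). The leading probe set's call over ARP1 was lost with the line as a block (adjusted p = 0.0711), as the mean of both probe sets (0.46, adjusted p = 0.169), with centred arrays (0.89, 0.295), a pseudocount of 1 (0.0613) or no limit on dim probe sets (0.162), and without any single array other than OPM2 CD24+ (0.0551 to 0.225). The call over OCI-MY5 was lost without the CD24+ (adjusted p = 0.0704) or the CD24- (0.0576) array of OCI-MY5, and without the OPM2 CD24+ array it was 2.61 (0.00899). The F test over the lines (adjusted p = 0.0162) was lost without any one array of ARP1 or OCI-MY5 (0.0743 to 0.0894), with centred arrays (1.94, 0.0848) and without the limit on dim probe sets (0.0782).

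Among genes of heparan sulfate synthesis and trimming and the other syndecans, 23 were measured, 20 were tested and 8 passed the F test over the lines (19.1% of leading probe sets did). XYLT1, which adds the first sugar of the heparan sulfate chain, read 721 and 801 in ARP1, 6.58 and 5.68 in OCI-MY5, and 2119 and 2140 in OPM2. Its OCI-MY5 values lay within the range of the TrpnX controls, and OPM2 exceeded OCI-MY5 by 6.60 on the log2(intensity + 16) scale (SE 0.20, limma adjusted p of the F test 0.000897). The order of the 3 lines was that of the leading SDC1 probe set. The probes of the XYLT1 probe set are of a kind that can also match other transcripts, which was not tested.

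SULF2, an enzyme that removes sulfate from finished chains, had the same order, with 127 and 164 in ARP1, 18.8 and 49.3 in OCI-MY5, and 1197 and 1282 in OPM2 (adjusted p of the F test 0.00522). SDC2, another syndecan, read 517 and 691 in OPM2 and no more than 116 on any other array (adjusted p 0.0349). HPSE, the heparanase that cleaves the chains, went the other way, at 893 and 769 in ARP1, 502 and 589 in OCI-MY5, and 19.2 and 54.0 in OPM2 (-4.09 for OPM2 against ARP1, SE 0.37, adjusted p of the F test 0.0069). The OPM2 values of HPSE lay within the range of the TrpnX controls.

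CD38 encodes the enzyme that converts NAD into cyclic ADP-ribose and ADP-ribose at the cell surface. Its single probe set (205692_s_at) read 695 and 741 in ARP1, 529 and 596 in OCI-MY5, and 1083 and 1389 in OPM2. The lines did not overlap, with OPM2 highest and OCI-MY5 lowest as in TNFRSF17, over a narrower span. OPM2 exceeded OCI-MY5 by 1.11 (SE 0.23, 2.15-fold, limma adjusted p = 0.0359), and the call was lost with the line as a block (0.0535), when arrays were centred by median (0.71, 0.362), without the limit on dim probe sets (0.148) and without any one array of ARP1 or OCI-MY5 (0.0994 to 0.182). Neither OPM2 against ARP1 (0.76, adjusted p = 0.0849) nor ARP1 against OCI-MY5 (0.35, 95% interval -0.24 to 0.93, adjusted p = 0.490) was called. The F test over the lines gave a limma adjusted p of 0.0591. OPM2 against ARP1 was called with quantile normalization (0.0474), the intensity trend (0.0374), the limit at the 75th percentile (0.0242) and 1 probe set per gene (0.04997). In those settings the F test passed too, as it did with a pseudocount of 64 (0.0388) and with gene means (0.0356). Of 9 genes for CD38's partners and for NAD and adenosine enzymes, 7 were tested and 0 passed the F test by limma (4 at an unadjusted p below 0.05). Of all leading probe sets, 19.1% passed. NT5E, the enzyme that makes adenosine from AMP, read 651 and 976 in ARP1, 294 and 294 in OCI-MY5, and 278 and 84.8 in OPM2, with an adjusted p of 0.0846.

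SLAMF7, the adhesion receptor also called CS1, had the widest span of line means among the leading probe sets of the 10 genes, under every alternative run. The leading probe set (222838_at) read 727 and 736 in ARP1, 257 and 317 in OCI-MY5, and 6757 and 6263 in OPM2. A second (219159_s_at) read 254 and 252 in ARP1, 64 and 87.9 in OCI-MY5, and 1195 and 1751 in OPM2. The third (234306_s_at) read 140 and 111 in ARP1, 11.2 and 24 in OCI-MY5, and 446 and 513 in OPM2, with both OCI-MY5 values within the range of the TrpnX controls. In each probe set OPM2 was highest and OCI-MY5 lowest, with no overlap between lines.

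On the leading probe set of SLAMF7, OPM2 exceeded OCI-MY5 by 4.43 (SE 0.22, 21.6-fold, limma adjusted p = 0.00101) and ARP1 by 3.13 (SE 0.22, 8.72-fold, adjusted p = 0.00231). ARP1 exceeded OCI-MY5 by 1.31 (SE 0.22), with an adjusted p of 0.0814. The second probe set gave 4.01 for OPM2 over OCI-MY5 (16.1-fold, adjusted p = 0.00231). The third gave 3.91 (adjusted p = 0.00248) against OCI-MY5 values no higher than the TrpnX controls, so no fold is given. Without the OPM2 CD24+ array the leading differences were 4.38 and 3.07 (adjusted p = 0.00326 and 0.00559). Both OPM2 calls of the leading probe set held under all 16 alternatives run on them.

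Of the other SLAM receptors and their adaptors, 10 were measured, 3 were tested and 2 passed the F test (19.1% of leading probe sets did). LY9, a homophilic SLAM receptor (SLAMF3), read 117 and 147 in ARP1, 99.0 and 134 in OCI-MY5, and 1282 and 983 in OPM2, which placed OPM2 2.95 above ARP1 (SE 0.27, limma adjusted p of the F test 0.0056). CD48, the ligand of CD244, read 6306 and 5407 in ARP1, 8017 and 7423 in OCI-MY5, and 15784 and 21327 in OPM2 (adjusted p of the F test 0.0263). Thus OPM2 was highest in SLAMF7, LY9 and CD48. The LY9 probe set is of a kind whose probes can also match other transcripts, and this was not tested. The means of ARP1 and OCI-MY5 changed places between SLAMF7 and CD48, but neither difference was called. ARP1 minus OCI-MY5 was 1.31 in SLAMF7 (limma adjusted p = 0.0814) and -0.40 in CD48 (SE 0.25, adjusted p = 0.457).

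**Figure D2:**
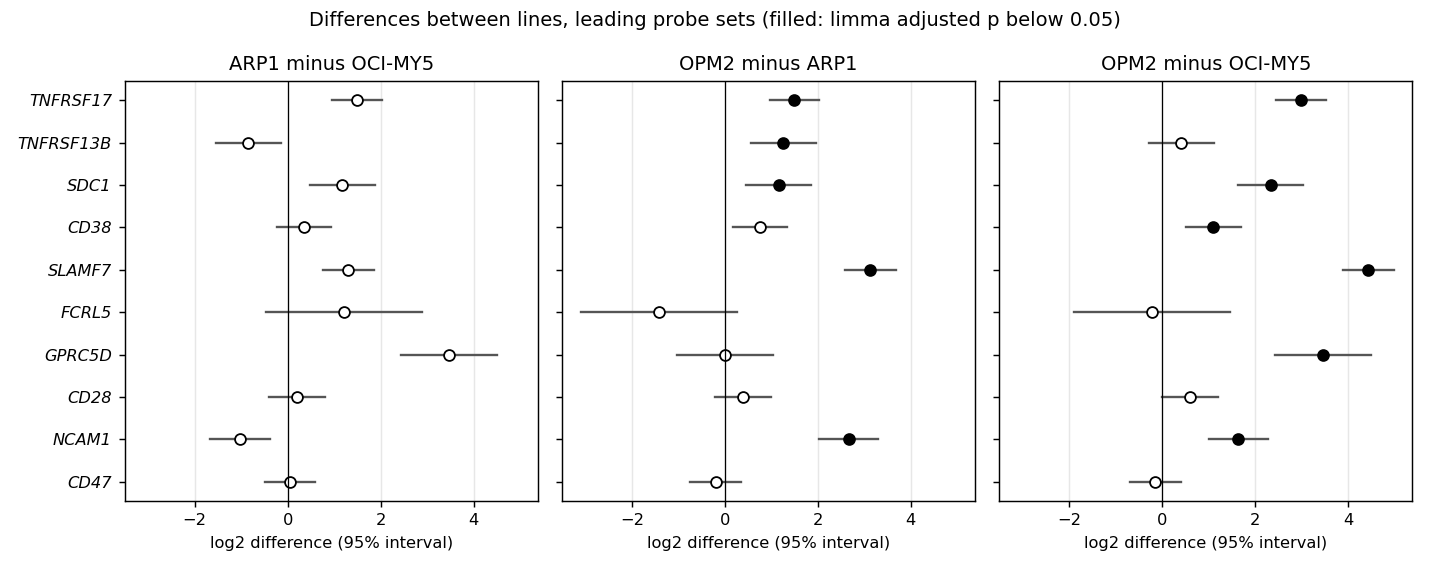
Differences between lines for the leading probe set of each gene on the log2(intensity + 16) scale, with points for the estimates, horizontal bars for 95% intervals from limma and filled points for an adjusted p below 0.05. The ARP1 minus OCI-MY5 panel has no filled point, the OPM2 minus ARP1 panel has 5 and the OPM2 minus OCI-MY5 panel has 6.

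FCRL5 is an Fc receptor-like molecule of B cells and plasma cells. Its leading probe set (224406_s_at) read 202 and 194 in ARP1, 114 and 49.9 in OCI-MY5, and 26.6 and 134 in OPM2. The OPM2 CD24+ value lay within the range of that array's TrpnX controls, and OCI-MY5 and OPM2 overlapped. Only 52.3% of its variance lay between lines, and limma called no contrast (ARP1 over OCI-MY5 1.21, SE 0.67, adjusted p = 0.404; OPM2 minus ARP1 -1.42, SE 0.67, 0.201). Without the OPM2 CD24- array, OPM2 minus ARP1 was -2.33 (adjusted p = 0.0284), and without the OPM2 CD24+ array it was -0.51 (0.482), so that the 2 OPM2 arrays decide whether FCRL5 is called. The other 4 probe sets stayed between 2.22 and 189 and were not tested. Of 6 Fc receptor-like relatives measured, 3 were tested and 0 passed the F test by limma (1 at an unadjusted p below 0.05; 19.1% of leading probe sets passed). Of the B cell markers, 4 were tested and 1 passed the F test, where 19.1% of leading probe sets did. MS4A1 read 38.8 to 209, CD22 27.2 to 216 and CD79A 43.8 to 254, and none of these was called. PAX5, the one that passed, read 370 and 272 in ARP1, 334 and 421 in OCI-MY5, and 16.4 and 15.9 in OPM2 (limma adjusted p of the F test 0.00358). Its OPM2 values lay within the range of the TrpnX controls.

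GPRC5D is an orphan G protein-coupled receptor of plasma cells and hair follicle keratin-forming cells. Its single probe set (221297_at) read 3525 and 3093 in ARP1, 187 and 428 in OCI-MY5, and 3097 and 3511 in OPM2. ARP1 and OPM2 overlapped fully, and OCI-MY5 lay far below both. OPM2 exceeded OCI-MY5 by 3.47 (SE 0.41, 11.1-fold, limma adjusted p = 0.00852), a call that held under all 16 alternatives and was 3.56 without the OPM2 CD24+ array.

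ARP1 exceeded OCI-MY5 in GPRC5D by 3.47 as well (SE 0.41), but with an adjusted p of 0.0572, which fell to 0.0479 and 0.0488 without the CD24+ or the CD24- array of OPM2. The same size of difference was thus called in one contrast and not in the other, where 15.3% and 0.348% of all probe sets were called. OPM2 and ARP1 differed by -0.0018 (95% interval -1.03 to 1.03, adjusted p = 0.998). The F test over the lines (adjusted p = 0.0109) was lost without the CD24+ (0.0643) or the CD24- (0.0622) array of ARP1. Of the 3 relatives GPRC5A, GPRC5B and GPRC5C, 1 was tested and 0 passed the F test by limma (1 at an unadjusted p below 0.05). Of all leading probe sets, 19.1% passed.

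CD28, the costimulatory receptor of T cells, differed little between lines. Its leading probe set (206545_at) read 2101 and 2729 in ARP1, 2208 and 1964 in OCI-MY5, and 3370 and 2965 in OPM2. OPM2 lay above the other 4 values, while ARP1 and OCI-MY5 overlapped. The difference between OPM2 and OCI-MY5 was 0.60 (95% interval -0.0059 to 1.20, limma adjusted p = 0.153), and the F test gave 0.233. Of 6 T cell markers, 1 passed the limit on dim probe sets, and CD3D, CD3E and CD3G read no more than 80.5, 129 and 66.5. The summed T cell list was 236 to 265 in ARP1, 151 to 236 in OCI-MY5 and 320 to 340 in OPM2, a sum of mostly dim probe sets that gives no measure of T cells.

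Among CD28 ligands, relatives and signalling genes, 11 were measured, 6 were tested and 1 passed the F test (19.1% of leading probe sets did). VAV1, the exchange factor downstream of CD28, read 1602 and 1717 in ARP1, 798 and 623 in OCI-MY5, and 606 and 683 in OPM2 (adjusted p of the F test 0.0314). The ligand CD86 read 81.3 to 105 on 5 arrays and 189 on OPM2 CD24+, and was not called (0.505).

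NCAM1 encodes CD56, the neural cell adhesion molecule that is also present on natural killer cells. Its leading probe set (212843_at) read 301 and 253 in ARP1, 605 and 546 in OCI-MY5, and 2142 and 1564 in OPM2. A second (227394_at) read 330 and 330 in ARP1, 547 and 462 in OCI-MY5, and 1082 and 1045 in OPM2. Both probe sets gave the same order with no overlap, and both put ARP1 lowest, unlike TNFRSF17, SDC1 and SLAMF7. The third tested probe set (231532_at) was dim, at 52.1 and 53.1 in ARP1, 104 and 5.4 in OCI-MY5, and 222 and 133 in OPM2, and was not called.

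On the leading probe set of NCAM1, OPM2 exceeded ARP1 by 2.66 (SE 0.25, 6.33-fold, limma adjusted p = 0.00504) and OCI-MY5 by 1.64 (SE 0.25, 3.12-fold, adjusted p = 0.0170). On the second probe set the differences were 1.64 (adjusted p = 0.0104) and 1.06 (0.0311, and 0.0572 with the line as a block). Without the OPM2 CD24+ array they were 2.44 and 1.42 on the leading probe set. The call over ARP1 was lost without the CD24+ (adjusted p = 0.0526) or the CD24- (0.0580) array of ARP1, as was the F test (0.0612 and 0.0669), which was also lost without the limit on dim probe sets (0.0528). The call over OCI-MY5 was lost without any one array of ARP1 or OCI-MY5 (0.0567 to 0.115), when arrays were centred by median (1.25, 0.0735) and without the limit on dim probe sets (0.0804).

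The natural killer cell list summed to 5388 and 6933 in ARP1, 159 and 155 in OCI-MY5, and 328 and 80.5 in OPM2. Of its 5 genes, GNLY (granulysin) read 5215 and 6859 in ARP1, 29.9 and 5.51 in OCI-MY5, and 119 and 22.5 in OPM2. The markers KLRD1, NKG7, KLRF1 and NCR1 read no more than 103 on any array. The sum in ARP1 was thus nearly all GNLY and gives no measure of natural killer cells. ARP1, the line brightest in GNLY, was the lowest in the leading NCAM1 probe set. Among NCAM1 partners and the enzymes that attach polysialic acid, 7 were measured. Of these, 4 were tested and 1 passed the F test (19.1% of leading probe sets did). ST8SIA2, which builds polysialic acid on NCAM1, had the order of NCAM1, at 111 and 4.26 in ARP1, 390 and 518 in OCI-MY5, and 2965 and 1458 in OPM2. OPM2 exceeded ARP1 by 5.37 in ST8SIA2 (SE 0.90, limma adjusted p of the F test 0.0369).

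CD47, which signals to SIRPA on phagocytes, had a bright and flat leading probe set (213857_s_at) that read 11526 and 12386 in ARP1, 11283 and 11737 in OCI-MY5, and 11409 and 9493 in OPM2. OCI-MY5 overlapped both other lines, while both ARP1 values lay above both OPM2 values, and the F test gave a limma adjusted p of 0.730. The 95% intervals of the differences were -0.49 to 0.60 for ARP1 minus OCI-MY5, -0.74 to 0.34 for OPM2 minus ARP1 and -0.69 to 0.40 for OPM2 minus OCI-MY5. Differences within those limits remain compatible with the values. The intervals are not adjusted for the number of probe sets and are no limit of detection. The second probe set (211075_s_at) was flat as well, at 6814 and 6783 in ARP1, 6440 and 6477 in OCI-MY5 but 4314 and 6068 in OPM2.

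CD47 probe set 226016_at read 3172 and 3040 in ARP1, 1984 and 1738 in OCI-MY5, and 1274 and 1767 in OPM2. OPM2 was 1.04 below ARP1 there (log2 difference -1.04, SE 0.25, limma adjusted p = 0.0499), which became -0.81 (0.0739) without the OPM2 CD24+ array and 0.0832 with the line as a block. The remaining 3 tested probe sets of CD47 lay between 28.5 and 449 and none was called. Of 8 CD47 ligands, partners and modifying enzymes, 2 were tested and 0 passed the F test by limma (0 at an unadjusted p below 0.05). Of all leading probe sets, 19.1% passed. SIRPA read 36.6 to 184, and of the complement regulators CD46, CD55 and CD59, which like CD47 shield cells from innate attack, 0 of 3 tested passed the F test by limma (1 at an unadjusted p below 0.05).

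Among 28 other surface antigens of myeloma that were measured, 23 were tested and 10 passed the F test over the lines (19.1% of leading probe sets did). CD81, a tetraspanin, read 2772 and 3377 in OPM2 and no more than 109 on the other arrays (limma adjusted p of the F test 0.00929). IL6R, the interleukin-6 receptor, read 2556 and 3213 in ARP1, 391 and 455 in OCI-MY5, and 15649 and 14389 in OPM2, in the order of TNFRSF17 (0.00165). CXCR4, the homing receptor of plasma cells, had this order too, at 5940 and 4365, 596 and 585, and 12723 and 9736 (0.00329). LAMP5 went the other way from OPM2's receptors, at 5730 and 5070 in ARP1, 1428 and 1463 in OCI-MY5, and 237 and 156 in OPM2 (0.00251). Over all 12 lists together, 26 of 82 tested genes passed the F test over the lines (31.7%, against 19.1% of all leading probe sets). The lists were chosen with earlier results of these data known, so the 2 shares are a description and carry no test. Of the list genes named with values, the F tests of CAMLG, LY9, XYLT1, SULF2, CD81, IL6R, CXCR4 and LAMP5 held under every alternative run on them. Those of TRAF5 (adjusted p 0.103 to 0.136), PSEN2 (0.125 to 0.173), APH1B (0.0606 to 0.0836), CD48 (0.0935 to 0.122) and VAV1 (0.0907 to 0.171) were lost without any one array of ARP1 or OCI-MY5, and with the line as a block those of PSEN2 (0.0616), CD48 (0.0580) and VAV1 (0.0651). Centred arrays ended the calls of PSEN2 (0.225), CD48 (0.186) and VAV1 (0.0988), and the mean of its probe sets that of TRAF5, whose span fell from 2.11 to 0.34 (0.811). The F test of SDC2 was lost without either OCI-MY5 array (0.116 and 0.106) and with a pseudocount of 1 (0.0670), and that of ST8SIA2 without ARP1 CD24-, either OCI-MY5 array or OPM2 CD24+ (0.0691 to 0.106) and with that pseudocount (0.0871). Without the limit on dim probe sets, the calls of TRAF5, PSEN2, APH1B, CD48, SDC2, VAV1 and ST8SIA2 were lost (0.0737 to 0.149), and that of HPSE was lost without ARP1 CD24+ (0.0502).

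The probe sets of one gene could be compared in 5 of the genes, since TNFRSF17, TNFRSF13B, CD38 and GPRC5D have 1 probe set each and FCRL5 had 1 tested. Of 25 pairs of tested probe sets, 9 gave the same order of the 3 line means (36%), against 37.7% of 17770 pairs over all genes. The median Pearson correlation over the 6 arrays was 0.38 in these pairs and 0.49 over all genes, as a description of pairs that share the same 6 libraries. SLAMF7 agreed in 3 of 3 pairs (r from 0.96 to 0.99), SDC1 in 0 of 1 (0.78), NCAM1 in 1 of 3 (0.64 to 0.99), CD28 in 1 of 3 (0.05 to 0.94) and CD47 in 4 of 15 (-0.63 to 0.80).

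The CD28 pair that agreed was 211861_x_at and 211856_x_at, both of a kind whose probes can also match other transcripts. They read 286 and 282 and 207 and 167 in ARP1, 282 and 428 and 247 and 370 in OCI-MY5, and 351 and 577 and 261 and 464 in OPM2. Both were lower in the CD24+ than in the CD24- array of OCI-MY5 and OPM2, where the leading CD28 probe set was higher.

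**Figure D3:**
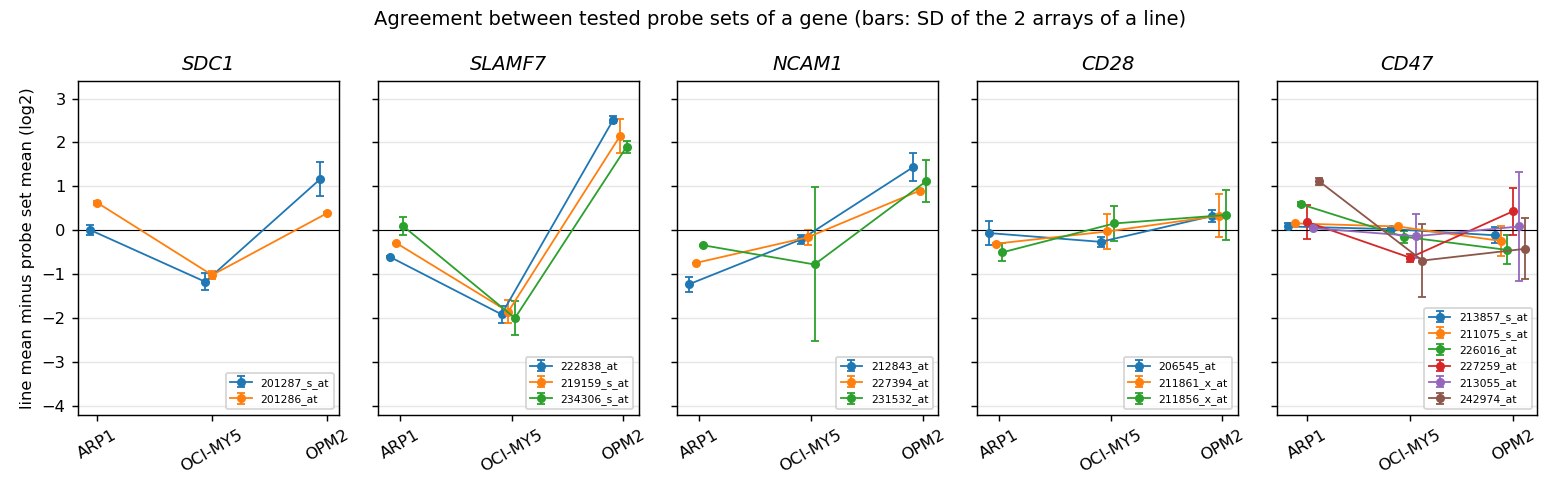
Line means of every tested probe set of the 5 genes with more than 1, each minus the mean of its 3 line means, on the log2(intensity + 16) scale, with bars for the SD of the 2 arrays of a line. The 3 SLAMF7 profiles run together from OCI-MY5 up to OPM2, the 2 SDC1 profiles part between ARP1 and OPM2, and the 6 CD47 profiles cross.

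In the comparison of CD24+ with CD24- cells, limma called 0 of the 22 probe sets of the 10 genes, and 0 of them had an unadjusted p below 0.05. Over all tested probe sets it called 0 of 27307 (0%), with 362 at an unadjusted p below 0.05. This fit has no term for the line, so the differences between lines count as error, and its 0 says little where lines differ widely. The SE of the leading SLAMF7 probe set was 1.46 there and 0.19 with the line as a block. With that block, which fits the pairing of the 2 fractions of a line, limma also called 0 (1369 at an unadjusted p below 0.05). In the 22 probe sets the lowest unadjusted p of limma with the block was 0.0974 (CD47 242974_at). No difference between the fractions was thus detected in these genes, within the intervals given next.

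TNFRSF17 was higher in the CD24+ array of each line, by 0.07 in ARP1, by 0.08 in OCI-MY5 and by 0.25 in OPM2 (mean 0.13 ± 0.10 SD, n = 3 lines, 95% interval with the line as a block -0.35 to 0.62). CD38 was lower in each, by 0.09, 0.17 and 0.35 (mean -0.20 ± 0.14, interval -0.70 to 0.29). NCAM1 was higher in each, by 0.24, 0.14 and 0.45 (mean 0.28 ± 0.16, interval -0.22 to 0.78). With arrays centred by median, which moves the median difference of all probe sets from 0.03 to -0.30, the mean of TNFRSF17 turned to -0.20 and that of NCAM1 to -0.05. Such a shared direction in the 3 lines was seen in 3 of the 10 leading probe sets and in 29.2% of all tested probe sets.

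In the other 7 genes the lines differed in direction. SDC1 was higher by 0.17 in ARP1 and lower by 0.28 and 0.54 in OCI-MY5 and OPM2, and SLAMF7 gave -0.02, -0.28 and 0.11 in the order ARP1, OCI-MY5, OPM2. GPRC5D gave 0.19, -1.13 and -0.18, with the widest value in OCI-MY5, where it was dimmest. FCRL5 gave 0.05, 0.98 and -1.82, CD28 -0.37, 0.17 and 0.18, TNFRSF13B -0.57, 0.15 and 0.27, and CD47 -0.10, -0.06 and 0.26. The intervals with the line as a block reached from -0.58 to 0.46 for SLAMF7 and from -0.83 to 0.39 for SDC1, but from -1.23 to 0.48 for GPRC5D and from -1.83 to 1.31 for FCRL5. Of the 82 tested genes in the 12 lists, limma without the block called 0 in this comparison, with 1 at an unadjusted p below 0.05.

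**Figure D4:**
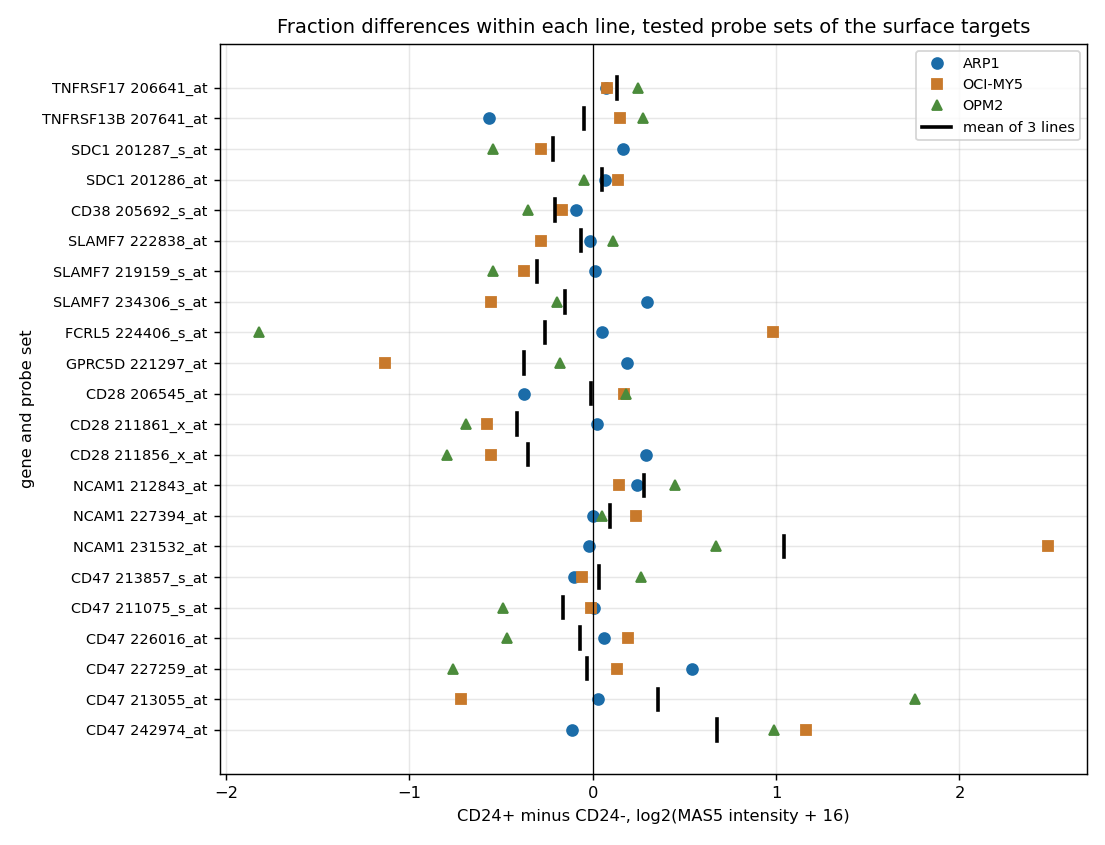
CD24+ minus CD24- difference of every tested probe set of the 10 genes on the log2(intensity + 16) scale, with 1 point per line (circle ARP1, square OCI-MY5, triangle OPM2) and a vertical bar for the mean of the 3. TNFRSF17 and the leading NCAM1 probe set have 3 points to the right of 0 and CD38 has 3 to the left, and the widest spreads belong to dim probe sets of FCRL5, NCAM1 and CD47.

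Line and fraction could be set against each other as shares of the variance on the log2 scale. Over the 10 leading probe sets the median was 95% between lines, 1.27% between fractions and 2.53% in the rest. Over all 22 tested probe sets of the 10 genes it was 89.3%, 1.27% and 9.58%. The like measure over all tested probe sets was 71.1%, 6.23% and 15.1%. The median span between the highest and the lowest line mean was 1.53 on the log2 scale in the 22 and 0.87 over all tested probe sets. By leading probe sets it was 1.88 in the 10 genes and 0.83 over all genes. These are descriptions of chosen genes and carry no test. The members with the order OPM2, ARP1, OCI-MY5 were TNFRSF17, SDC1, CD38, SLAMF7 and CD28 (5 of 10, against 20.4% of all leading probe sets). Over the 6 arrays, TNFRSF17 correlated with SDC1 at 0.97, with SLAMF7 at 0.97 and with CD38 at 0.93, and with NCAM1 at 0.61, as descriptions over libraries that share lines.

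For the 5 genes whose line means spanned at least 2 on the log2 scale, the genes with the most similar profile over the 6 arrays were looked up among 1433 genes of such a span. CKAP4, RAB4A and AHNAK lay nearest to TNFRSF17 (Pearson r at or above 0.997), with 112 genes over 0.95. RBFOX2, RAB36 and GNG7 lay nearest to SDC1 (77 over 0.95), and HIPK2, POU4F1 and GAS6 nearest to SLAMF7 (142 over 0.95). KCND2, FAM81A and H2BC21 lay nearest to GPRC5D (30 over 0.95), and STBD1, HIPK3 and PCDH17 nearest to NCAM1 (57 over 0.95). With 3 lines, many genes share any given profile.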

How the data were processed

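Total RNA of sorted CD24+ and CD24- cells of 3 myeloma lines was measured on 6 arrays, 1 per line and fraction. Per the series' design text and the submitters' processing notes, the authors computed MAS5 values with Affymetrix Expression Console 1.1, and the deposited table holds 1 linear MAS5 intensity per probe set and array. Scanner output was not used here. The genome build was not given in the sources used here.

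Gene names came from the platform annotation, updated by Entrez ID (41037 of 41091 single-gene probe sets matched). Of 54675 probe sets, 62 controls were left out. From the deposited intensities, log2(intensity + 16) was computed, probe sets with a mean of at least the median (6.36) were kept, and limma 3.58.1 in R 4.3.3 was fitted without a block for the fractions and with a mean per line for the lines (adjusted p threshold 0.05). The code was checked on simulated data. Only 6 arrays limit the precision.

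The members, lists and rules for named genes were chosen with earlier results of these data known. Every probe set of the 10 genes is accounted for, each gene is led by its brightest probe set, up to 4 genes per pathway list past the F test with the largest span are named, and up to 3 most similar genes are given for members that span 2 or more. CD44, MUC1, the marker genes given with values and the genes named as not called were added after their values were seen. The same number in the labels marks the same cell line, so the numbers pair the samples; their deviations around the fraction means correlated at 0.63, 0.63 and 0.70 within lines and between -0.53 and 0.10 across them. Alternatives were other pseudocounts (1, 64), filters, normalizations, probe set summaries, an intensity trend in the variance, the line as a block and leaving out each array.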

Additional observations from a re-analysis of the deposited data

How the results depend on the processing

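With the line as a replicate block, the CD24 comparison again called 0 probe sets, and it did so under each of the 19 alternatives. The calls that the replicate block ended stand beside their values, and it changed no other call of the 10 genes' leading probe sets between lines. The counts of called probe sets depended on the settings, and for most settings the cause was not tested. For ARP1 minus OCI-MY5 (95) the count was 3 and 559 with pseudocounts of 1 and 64, 1 without the filter, 1555 with the filter at the 75th percentile, 316 with 1 probe set per gene, 25 with quantile normalization, 58 with centred arrays, 1584 with an intensity trend, 2 with the block, and 0 to 529 without single arrays. For OPM2 minus ARP1 (4237) it was 1283 without the filter, 2204 with gene means, 2759 with centred arrays, 6698 with the trend, and 505 to 8177 without single arrays. For OPM2 minus OCI-MY5 (4167) it was 1192, 2305 and 6377 without the filter, with gene means and with the trend, and 778 to 8369 without single arrays. For the F test (4365) it was 991, 2463, 2814 and 7916 without the filter, with gene means, with centred arrays and with the trend, 2417 with the block, and 744 to 8825 without single arrays. The probe set pairs with the same line order numbered 7 to 15 (15 without OPM2 CD24+, 14 without OCI-MY5 CD24-). Gene means and 1 probe set per gene test fewer features. A line left with 1 array was assumed to vary like the others.

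Directions turned in differences that were not called. With centred arrays, the CD24 difference became -0.20 in TNFRSF17, -0.053 in NCAM1 and -0.30 in CD47, and ARP1 minus OCI-MY5 became -0.073 in CD47. Gene means gave -0.25 for ARP1 minus OCI-MY5 in CD28 and 0.037 for OPM2 minus OCI-MY5 in CD47, and quantile normalization gave 0.032 for the CD24 difference in CD28. Without single arrays or lines, where unequal sets of lines are compared, the CD24 difference ran from -0.65 to 0.89 in TNFRSF17, -0.41 to 0.43 in TNFRSF13B, -0.79 to 0.45 in SDC1, -0.48 to 0.14 in CD38, -1.37 to 1.15 in SLAMF7, -0.88 to 0.52 in FCRL5, -1.34 to 0.97 in GPRC5D, -0.22 to 0.18 in CD28, -0.48 to 0.95 in NCAM1 and -0.080 to 0.11 in CD47. OPM2 minus OCI-MY5 ran from -1.12 to 0.70 in FCRL5, and OPM2 minus ARP1 from -0.096 to 0.092 in GPRC5D.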

Other observations

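Some surface and marker genes outside the 10 targets set the lines apart in other ways. Among their probe sets, that of HBB is of a kind whose probes can also match other transcripts, which was not tested. CD44, a receptor for hyaluronan, was brightest in OCI-MY5, the line with the lowest mean of the leading probe set in 6 of the 10 targets. It read 15927 and 12132 there against 2551 and 2215 in ARP1 and 1424 and 1611 in OPM2 (OPM2 minus OCI-MY5 -3.19, SE 0.24, limma adjusted p of the F test 0.00495). MUC1, a mucin, read 372 and 229 in ARP1, 149 and 104 in OCI-MY5, and 24.4 and 44.4 in OPM2, where both OPM2 values lay within the range of the TrpnX controls (limma adjusted p of the F test 0.0232, lost under 6 of 15 alternatives, at 0.0507 to 0.106). HBB, a haemoglobin chain, read 2298 and 1792 in OPM2 and no more than 225 on the other 4 arrays (limma adjusted p of the F test 0.0192, lost under 4 of 15 alternatives, at 0.0533 to 0.0680).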
